A study of Mus musculus with 124 samples.

Results

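Monocytes sorted from the blood of mouse offspring were compared between prenatal ethanol (EtOH) and a group labelled PBS (phosphate-buffered saline), in 11 of the 85 samples of the series. Samples were chosen by their numbers. The EtOH monocytes were JS37, JS40, JS43, JS49, JS52 and JS55, and the PBS monocytes were JS3, JS6, JS9, JS11 and JS14. Between them they have 20 libraries. All samples numbered JS17 to JS22 and JS29 to JS34 were left out of both groups, because earlier readings of sex-linked genes and cell type markers had put labels in those number runs in doubt. That removed 5 of the 16 EtOH and PBS monocyte samples, namely the EtOH samples JS31 and JS34 and the PBS samples JS17, JS19 and JS22. The mice were CD1, an outbred stock. For the EtOH group, ethanol (25% in PBS) was injected intraperitoneally on embryonic days 16 and 17 at 4.0 g/kg each time, and the blood was drawn between postnatal days 35 and 40. The labels name the other group PBS and say nothing more of its treatment. They give EtOH 4 female and 2 male samples, and PBS 2 female and 3 male samples, all in sequencing batch 1. They do not say that each sample is a separate animal, so the p-values measure the spread between these samples only.

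Monocytes are blood phagocytes that sense microbial products through Toll-like receptors, release cytokines and chemokines, and mature into macrophages or dendritic cells in tissue. In mice a classical subset with high Ly6c enters inflamed tissue and a nonclassical subset patrols the vessel wall. The series asked which blood RNAs prenatal alcohol exposure shares with maternal diabetes as markers of neurocognitive impairment.

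The counts per sample came to 1287975 to 6232460 in EtOH and 1326520 to 4860473 in PBS. Lyz2, the lysozyme of myeloid cells, stood at 20305 to 37154 CPM (the count scaled to a sample total of 1e6) in EtOH and at 18940.0 to 31326 CPM in PBS, and Csf1r, the receptor for monocyte growth factors, at 730.0 to 2058 CPM in EtOH and 1918 to 2505 CPM in PBS. Markers of other cells were present. The neutrophil markers were abundant, summing to 10249 to 56100.0 CPM in EtOH and 11238 to 24244 CPM in PBS, beside 30035 to 52905 CPM in EtOH and 30595 to 48394 CPM in PBS for the classical monocyte markers. Lymphocyte genes were lower, with the T cell gene Cd3e at 16.8 to 43.5 CPM in EtOH and 2.55 to 48.2 CPM in PBS, and the B cell gene Cd79a at 10.3 to 46.6 CPM in EtOH and 8.43 to 155 CPM in PBS. Ncr1, a receptor of natural killer (NK) cells, was at 187 to 672 CPM in EtOH and 52.7 to 488 CPM in PBS. In bulk RNA, fewer cells of a type and less RNA per cell cannot be told apart. The retained EtOH sample JS43 is labelled male but had Xist at 66.0 CPM and the summed level of 4 Y-linked genes at 1.55 CPM, so it goes against its sex label. By these genes EtOH had fewer males than its labels give. The sex term of the fits used the label, and no fit used the sex read from these genes. The retained PBS sample JS14, labelled male, had Xist at 9.80 CPM beside a Y-linked sum of 282 CPM. Xist was at 0.21 and 0.23 CPM in the PBS males JS3 and JS11.

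Each of the 5 left-out samples lay on the side of the other group for most of the genes compared. For each of the 221 genes that passed the test described below, the midpoint was taken between the EtOH and the PBS mean of log2(CPM + 1). The left-out PBS samples were on the EtOH side of it for 170 genes in JS17, 206 in JS19 and 201 in JS22. The left-out EtOH samples were on the PBS side for 139 genes in JS31 and 168 in JS34. Camkk1, the gene with the lowest p, was at 68.7 and 61.9 CPM in the left-out EtOH samples and at 9.45, 4.74 and 2.61 CPM in the left-out PBS samples. JS17 also lacked the monocyte pattern (Lyz2 172 CPM, Cd3e 865 CPM), so for its side of the midpoint cell type and treatment cannot be told apart. JS19 and JS22 had Ncr1 at 1854 and 1366 CPM, above the 672 CPM of the highest retained sample. Their Lyz2, at 15913 and 17322 CPM, lay below the 18940 CPM of the lowest retained sample. For JS19 and JS22 too, cell content and treatment cannot be told apart. The sex-linked genes of JS19, JS22 and JS34 went against their labels. JS31 went against neither its cell type nor its sex label and was left out through its number alone. Whether samples were exchanged was not tested, and every p-value below holds for the 11 retained samples, given that choice. With all 16 samples included, 0 genes passed in edgeR, and 411 had an unadjusted p under 0.05. The retained PBS numbers (3 to 14) and EtOH numbers (37 to 55) do not overlap, so number order and treatment cannot be told apart.

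Of 12623 genes tested, 221 passed an adjusted p of 0.05 (edgeR quasi-likelihood test with Benjamini-Hochberg adjustment), which is 1.75% of them. EtOH monocytes were higher for 77 genes (0.61%) and lower for 144 (1.14%), and the median log2 difference over all genes was 0.04. The called genes differed by large steps, with a median log2 difference of 1.68 among the higher and -1.34 among the lower ones. At least a 4-fold difference was seen for 28 higher and 26 lower genes. The 6 EtOH and 5 PBS values of CPM did not overlap for 132 of the 221, against 3.14% of all genes tested. Because the 221 were picked by a test on these same samples, a higher share among them was built in. X-linked genes made up 3 of the 221 and Y-linked genes 0. Their share among all genes tested was not worked out, so these counts cannot be read as high or low. They do not cover autosomal genes that differ by sex. The number of calls rested on few samples, since it fell to 18 without PBS JS6, 63 without EtOH JS55, 81 without PBS JS9, 82 without PBS JS11, 121 without EtOH JS43 and 136 without EtOH JS49, and came to 378 without EtOH JS52. DESeq2 called 650 genes (302 higher and 348 lower), limma voom 891 (407 and 484) and edgeR without a filter on low counts 579 (288 and 291). A core of 18 genes passed whichever of the 11 samples was left out.

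**Figure D1:**
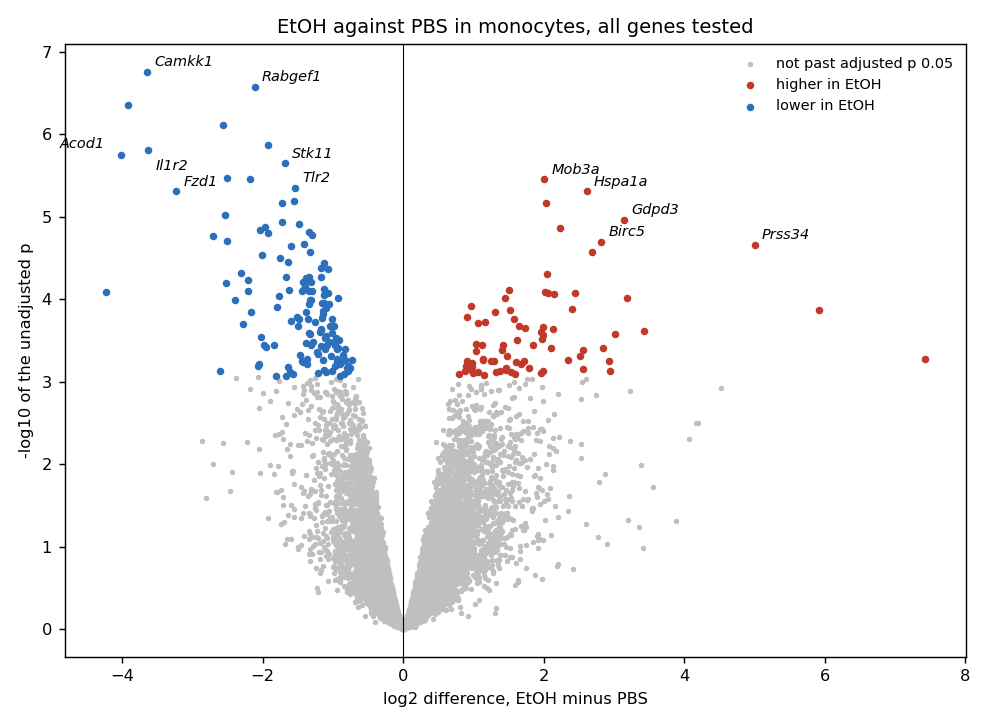
Each point is 1 of the 12623 genes tested, with the log2 difference of EtOH minus PBS across and -log10 of the unadjusted p up. Red points (77) and blue points (144) passed an adjusted p of 0.05, and the lowest p-values lie on the lower side, at Camkk1 and Rabgef1.

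The genes that fell most clearly included kinases and signalling proteins. Camkk1, a kinase that activates calmodulin-dependent kinases, ranged over 3.05, 4.82 and 10.6 CPM (lowest, median and highest) in EtOH monocytes and stood at 44.7, 97.5, 33.1, 74.3 and 32.4 CPM in PBS samples JS3, JS6, JS9, JS11 and JS14, the order of samples used for PBS below. Every PBS sample thus lay above every EtOH sample, and the log2 difference was -3.64 (SE 0.39, adjusted p = 0.00166). Rabgef1 (chr5:130171798-130214342, plus strand, GRCm38), which encodes a Rab5 exchange factor of early endosomes, was at 33.4, 43.2 and 51 CPM in EtOH and at 75.8, 186, 254, 179 and 134 CPM in PBS, again without overlap (-2.11, SE 0.24, adjusted p = 0.00166). Stk11, the kinase LKB1 that activates AMPK, fell to 33.9 ± 12.7 CPM in EtOH, against 109 ± 35.1 CPM in PBS (SD, n = 6 and 5), a log2 difference of -1.69. Plk3, a stress-responsive polo-like kinase, fell to 95.9 ± 36.4 CPM in EtOH, against 489 ± 175 CPM in PBS. Pde4b, the phosphodiesterase that degrades cAMP in leukocytes, was at 311, 379 and 572 CPM in EtOH and 566, 1171, 1276, 1263 and 811 CPM in PBS. Here the highest EtOH sample just passed the lowest PBS sample, with a log2 difference of -1.55 and an adjusted p of 0.00506. Fzd1, a Wnt receptor, was low throughout, at 1.07 ± 0.549 CPM in EtOH and 8.29 ± 3.06 CPM in PBS.

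Il1r2, Acod1 and Tlr2, each with a role in inflammation, fell, while the cytokines and chemokines given further on included genes that rose. Il1r2, the decoy receptor that binds interleukin 1 without signalling, was at 33.2, 158 and 319.9 CPM in EtOH and 993, 2259.9, 1652, 2128 and 957 CPM in PBS, so that the lowest PBS sample lay well above the highest EtOH sample (log2 difference -3.63, SE 0.47, adjusted p = 0.00322). Acod1, which makes itaconate in activated macrophages, was at 1.28, 5.68 and 16.3 CPM in EtOH and 68.5, 146, 132, 116 and 40.0 CPM in PBS (-4.01, SE 0.52, adjusted p = 0.00322). Its groups did not overlap either. Tlr2, the receptor for bacterial lipoproteins, was at 87.8, 141 and 169.7 CPM in EtOH and 268, 396, 403, 453 and 223 CPM in PBS (-1.54, SE 0.22, adjusted p = 0.00445), with all PBS samples above all EtOH samples. Cd14, the co-receptor for lipopolysaccharide, averaged 1328 ± 733 CPM in EtOH and 2813 ± 1026 CPM in PBS and did not pass (adjusted p = 0.061). Zfand2a, an arsenite-inducible regulator of the proteasome, fell to 33.4 ± 7.7 CPM in EtOH, against 117 ± 38.4 CPM in PBS. Trim30b, of a gene cluster whose near-identical copies make its counts uncertain, averaged 49.4 ± 25.7 CPM in EtOH and 238 ± 165 CPM in PBS.

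B3gnt5, a transferase of glycosphingolipid synthesis, fell to 7.44 ± 2.46 CPM in EtOH, against 39.1 ± 15.1 CPM in PBS. Gpat3, which starts triglyceride synthesis, was at 6.95 ± 3.95 CPM in EtOH and 23.1 ± 7.23 CPM in PBS, and Lmnb1, which encodes lamin B1 of the nuclear envelope, at 53.1 ± 15.5 CPM in EtOH and 148 ± 62.1 CPM in PBS. The 14 named lower genes were picked by their low p in these same samples. Of them, 13 had groups without overlap, against 3.14% of all genes tested. In each of the 11 fits that left 1 sample out, 12 of them passed. Lmnb1 and Trim30b passed in 10 of the 11.

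To show the regulatory sequence of genes that fell, the region upstream of the RefSeq start (GRCm38.p6) is given for 3 of them, cut where an annotated exon begins. They were chosen for holding a match, and 2 of the 13 named lower genes with a known promoter held a kB motif and 1 the cAMP response element. Capitals mark a match to a kB motif, bound by NF-kB, in Tlr2 (chr3:83841768-83841858, minus strand) and Pde4b (chr4:102587308-102587557, plus strand, 1 of 4 starts), and the cAMP response element TGACGTCA in Zfand2a (chr5:139484550-139484741, minus strand). Another Pde4b start, with the region chr4:102569810-102570059, also held a kB match and is not shown.

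Tlr2: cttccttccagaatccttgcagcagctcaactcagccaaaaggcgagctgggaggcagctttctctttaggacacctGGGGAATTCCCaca

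Zfand2a: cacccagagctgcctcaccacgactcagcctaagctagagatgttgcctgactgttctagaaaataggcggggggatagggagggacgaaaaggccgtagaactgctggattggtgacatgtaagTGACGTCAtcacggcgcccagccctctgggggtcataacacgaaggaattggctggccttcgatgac

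Pde4b: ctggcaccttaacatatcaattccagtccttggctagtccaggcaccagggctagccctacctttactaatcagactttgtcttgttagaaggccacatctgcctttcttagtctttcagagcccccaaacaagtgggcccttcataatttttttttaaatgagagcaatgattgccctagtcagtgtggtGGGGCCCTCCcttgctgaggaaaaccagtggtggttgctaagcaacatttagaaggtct

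Of 11 motifs searched over 250 bases upstream of each start and on both strands, 6 are given. A kB match was found in 16.4% of the 110 lower genes with a promoter in the table, 15.8% of the 57 higher genes and 10.3% of all 8960 tested genes. The element TGACGTCA was found in 3.64% of the lower genes, 0% of the higher genes and 3.02% of all. The heat shock element, searched as GAANNTTC, was found in 5.45% of the lower and 15.8% of the higher genes, against 6.16% of all, and the E-box CACGTG in 12.7% of the lower and 3.51% of the higher genes, against 10.0% of all. The CCAAT box was found in 46.4% of the lower and 56.1% of the higher genes, against 40.1% of all, and the metal response element, searched as TGCGCNC, in 17.3% of the lower and 21.1% of the higher genes, against 24.4% of all. None of these 6 motifs contains another. A match is a description of the letters, not evidence of binding.

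Genes that rose came from several programmes. Mob3a, of the MOB family of kinase adaptors, was at 342, 453 and 689 CPM in EtOH and 100.4, 64.8, 199, 78.6 and 82.9 CPM in PBS (log2 difference 2.01, SE 0.28, adjusted p = 0.00405). Gdpd3, a lysophospholipase D, was at 8.02, 43.6 and 63.0 CPM in EtOH and between 3.35 and 4.94 CPM in all 5 PBS samples (3.14, SE 0.48, adjusted p = 0.00717). Both genes had groups that did not overlap. Gpr34, a receptor for lysophosphatidylserine, rose to 15.8 ± 3.15 CPM in EtOH, against 3.34 ± 1.09 CPM in PBS, and Ccl3, a chemokine that draws leukocytes, to 430.4 ± 194 CPM in EtOH, against 124 ± 62.4 CPM in PBS. Lower levels were found for Enpp5, a membrane phosphodiesterase (12.8 ± 2.86 CPM in EtOH and 4.6 ± 1.37 CPM in PBS), Zdhhc15, a palmitoyltransferase (6.49 ± 4.04 CPM in EtOH and 1.45 ± 0.836 CPM in PBS), Ubash3a, a regulator of T cell receptor signalling (9.5 ± 4.12 CPM in EtOH and 2.4 ± 1.28 CPM in PBS), and Cnep1r1, a subunit of a nuclear envelope phosphatase (29.2 ± 8.08 CPM in EtOH and 11.3 ± 3.85 CPM in PBS). The 14 named higher genes were likewise picked by their low p in these same samples. Of them, 12 had groups without overlap, against 3.14% of all genes tested. Mob3a and Hspa1a passed in all 11 leave-one-out fits, and the other 12 lost the call in at least 1.

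**Figure D2:**
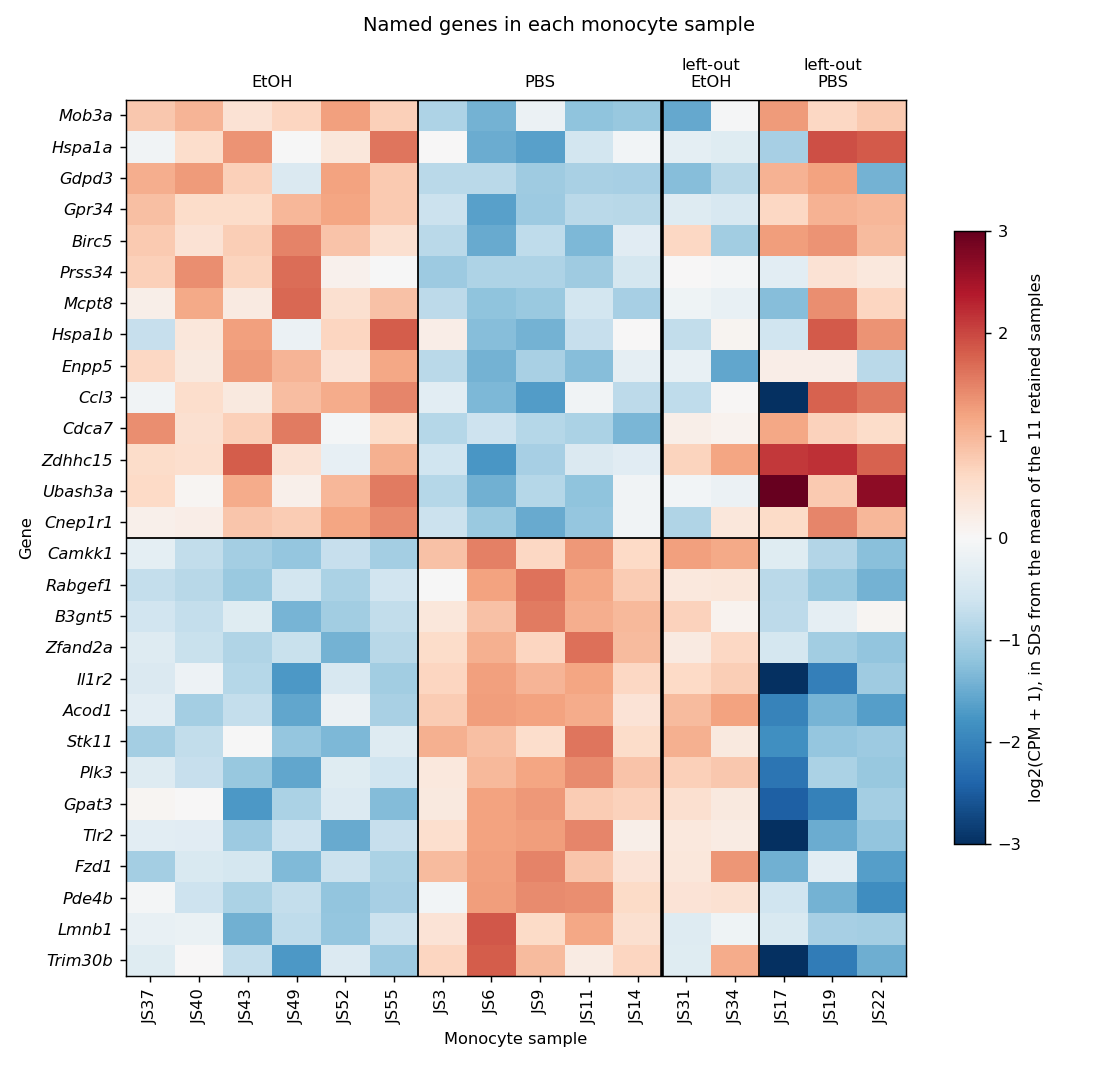
Rows are the 14 higher and 14 lower genes with the lowest p, columns the 11 retained and 5 left-out monocyte samples, and colour the log2(CPM + 1) in SDs from the mean of the retained samples, limited to 3 SDs either way. The left-out PBS columns mostly have the colours of EtOH, and the left-out EtOH columns mostly those of PBS.

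The heat shock genes Hspa1a and Hspa1b, which encode near-identical Hsp70 chaperones and share reads, both rose. Hspa1a was at 5.14, 8.96 and 26.5 CPM in EtOH and 5.75, 0.823, 0.629, 3.19 and 5.28 CPM in PBS (log2 difference 2.62, SE 0.38, adjusted p = 0.00445). Hspa1b averaged 36 ± 29.3 CPM in EtOH and 11.1 ± 7.29 CPM in PBS. The groups of both overlapped. For this list and those that follow, 0.61% of all genes tested were higher and 1.14% lower. Of 15 heat shock and cold-inducible genes tested these 2 rose and 1 fell, Cirbp, the cold-inducible RNA-binding protein, at 62.5 ± 12.7 CPM in EtOH and 108 ± 21.3 CPM in PBS, and the list median was 0.23, against 0.04 over all genes.

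Of 20 cell cycle genes tested, 5 rose, 0 fell and 15 did not pass, and the median log2 difference was 1.73. Among all genes tested, 0.61% were higher and 1.14% lower. Birc5, the inhibitor of apoptosis survivin, which also acts in mitosis, was at 12.4, 17.6 and 37.1 CPM in EtOH and 2.98, 1.03, 3.14, 1.37 and 5.28 CPM in PBS (2.82, SE 0.46, adjusted p = 0.0084). Plk1, the mitotic polo-like kinase, averaged 11.2 ± 6.55 CPM in EtOH and 1.85 ± 1.28 CPM in PBS. Ccnb1, the mitotic cyclin, averaged 12.2 ± 6.43 CPM in EtOH and 2.4 ± 1.81 CPM in PBS. Rrm2, of ribonucleotide reductase, and Aurkb, the mitotic Aurora kinase, also rose, with log2 differences of 2.00 and 1.54. Cdca7, a cell division gene outside the list, averaged 13.5 ± 6.75 CPM in EtOH and 2.6 ± 0.716 CPM in PBS. The summed level of the 20 genes was 348 to 720 CPM in EtOH and 141 to 336 CPM in PBS. Beside this, the T cell markers had a median log2 difference of 1.09 and the NK cell markers one of 0.99, with 0 of 15 and 0 of 16 passing. Neutrophil markers had a median of 0.81 (0 of 16 passing), eosinophil markers 1.38 (0 of 8) and basophil and mast cell markers 1.71. EtOH JS49 had the highest sum of both the cell cycle genes (720.3 CPM) and the neutrophil markers (56100.0 CPM), and EtOH JS37 the next highest of both (599 and 34788 CPM). The other EtOH samples, JS40, JS43, JS52 and JS55, had cell cycle sums of 348, 533, 382 and 473 CPM. Their neutrophil sums were 29576, 12040, 14800 and 10249 CPM. PBS JS6 had the lowest cell cycle sum (141 CPM) and the highest neutrophil sum of its group (24244 CPM). The part of any of these other cell types in the cell cycle result was not tested.

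Of 12 basophil and mast cell genes tested, 5 rose and 1 fell, 11 had a log2 difference above 0, and the median was 1.71. Among all genes tested, 0.61% were higher and 1.14% lower. Prss34, a basophil protease, was at 10.4, 36.5 and 197 CPM in EtOH and 0.851, 1.44, 1.47, 0.912 and 3.77 CPM in PBS (5.00, SE 0.82, adjusted p = 0.00856). Mcpt8, the other basophil protease, was at 38.4, 66.9 and 196 CPM in EtOH and 13.6, 8.44, 9.22, 17.6 and 10.6 CPM in PBS (2.69, SE 0.45, adjusted p = 0.00976). Neither gene had overlapping groups. Ms4a2, the beta chain of the IgE receptor, Il4 and Il6 rose with log2 differences of 1.84, 2.14 and 2.10, while Hdc, which makes histamine, fell to 381 ± 185 CPM in EtOH, against 929.6 ± 248 CPM in PBS. The summed level of all 14 markers overlapped, at 472 to 1330 CPM in EtOH and 859 to 1399 CPM in PBS.

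**Figure D3:**
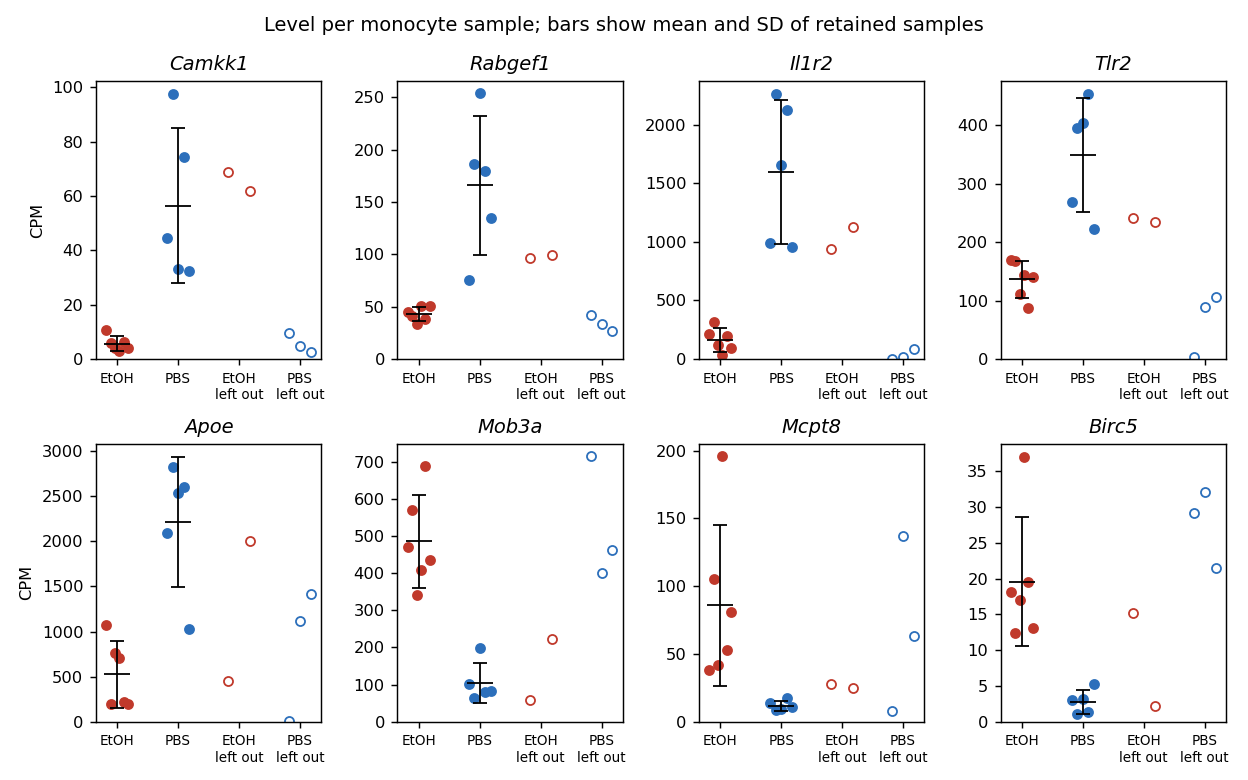
Filled points are retained and open points left-out monocyte samples, with CPM on a linear axis and bars for mean and SD of the retained groups (n = 6 EtOH and 5 PBS). Camkk1, Rabgef1, Il1r2, Tlr2, Mob3a, Mcpt8 and Birc5 separate the retained groups, and Apoe overlaps by 1 EtOH sample that passes the lowest PBS sample.

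Toll-like receptors and their partners gave 0 higher and 1 lower gene of 15, Tlr2, with a median of -0.43. Tlr13, which senses bacterial ribosomal RNA in mice, averaged 387 ± 169 CPM in EtOH and 656 ± 60.7 CPM in PBS and did not pass (adjusted p = 0.0923). Among 13 cytokines tested, Il6 and the interleukin 6 family member Osm rose (log2 differences 2.10 and 1.14), and Il12a, a subunit of interleukin 12, was at 0.719 ± 0.14 CPM in EtOH and 4.37 ± 1.92 CPM in PBS and fell. Of 13 chemokines, Ccl3 and the closely related Ccl4 rose (2.02 and 1.65) and 0 fell. NF-kB factors and their feedback genes (18 tested) and interferon-stimulated genes (23 tested) had 0 passing members, with medians of -0.22 and -0.32.

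Of 12 glucocorticoid-responsive genes tested, 3 fell, against 1.14% of all genes tested. Per1, a repressor of the circadian clock, was at 37.0, 62.7 and 81.4 CPM in EtOH and 79.2, 206, 148, 257 and 243 CPM in PBS (-1.75, SE 0.30, adjusted p = 0.0106), with the highest EtOH sample above the lowest PBS sample. Klf9 fell with a log2 difference of -1.40 and Mt1, which encodes a metal-binding metallothionein, with -1.60, and in both the groups overlapped. The list median was -0.17. The clock list of 13 had Per1 as its 1 passing member, and Nr1d1, the repressor Rev-erb alpha, was at 1.52 ± 1.36 CPM in EtOH and 8.17 ± 5.18 CPM in PBS without passing (adjusted p = 0.0509), and neither did Nfil3, a clock repressor at 276 ± 47.4 CPM in EtOH and 297 ± 51.3 CPM in PBS.

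Apoe, the apolipoprotein that carries cholesterol out of macrophages and is also a marker of nonclassical monocytes here, was at 196, 462 and 1076 CPM in EtOH and 2089.9, 2827, 2534, 2606 and 1023 CPM in PBS (-2.27, SE 0.46, adjusted p = 0.0246). It was the 1 passing member of 12 cholesterol efflux genes and of 20 nonclassical monocyte markers. Cd36, a scavenger receptor on both lists, and Nr4a1, which nonclassical monocytes need, averaged 387 ± 87.4 and 1365 ± 339.8 CPM in EtOH and 501 ± 106 and 1634 ± 327 CPM in PBS and did not pass. None of the 19 classical monocyte markers tested passed, and their median was -0.23, with Csf1r at -0.62 and Lyz2 at -0.09. In cholesterol synthesis, Hmgcs1, an early enzyme of the pathway, rose (1.13) and Insig1, which holds back its transcription factor, fell (-1.37), with 2 of 19 passing in all.

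Among 19 lysosomal genes Ctsl, a cathepsin, fell (-1.35), and Ctsb, Ctss and Lamp2 did not pass, with log2 differences of -0.15, -0.32 and -0.46. Among 17 genes of transforming growth factor beta signalling Skil, a corepressor of Smad factors, fell (-1.17), and Smad7, Tgfbr1 and Tgfb1 did not pass (-1.14, -0.24 and 0.12). The erythroid genes Hba-a1 and Hbb-bt, whose copies make the counts uncertain, fell (-1.64 and -1.98), with 2 of 8 passing. The summed erythroid level was 385 to 2373 CPM in EtOH and 1063 to 5131 CPM in PBS. Genes of alcohol and aldehyde metabolism (13 tested), DNA methylation (11), ribosomal proteins (30), the nuclear respiratory chain (26) and mitochondrially encoded genes (10) had 0 passing members and medians between -0.08 and 0.10. In all, 14 of the 37 lists held a passing gene, where 1.75% of all genes tested passed. Apoe, Per1 and Il6 were each shared between lists. How many lists of these sizes would hold a passing gene at that share was not worked out.

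**Figure D4:**
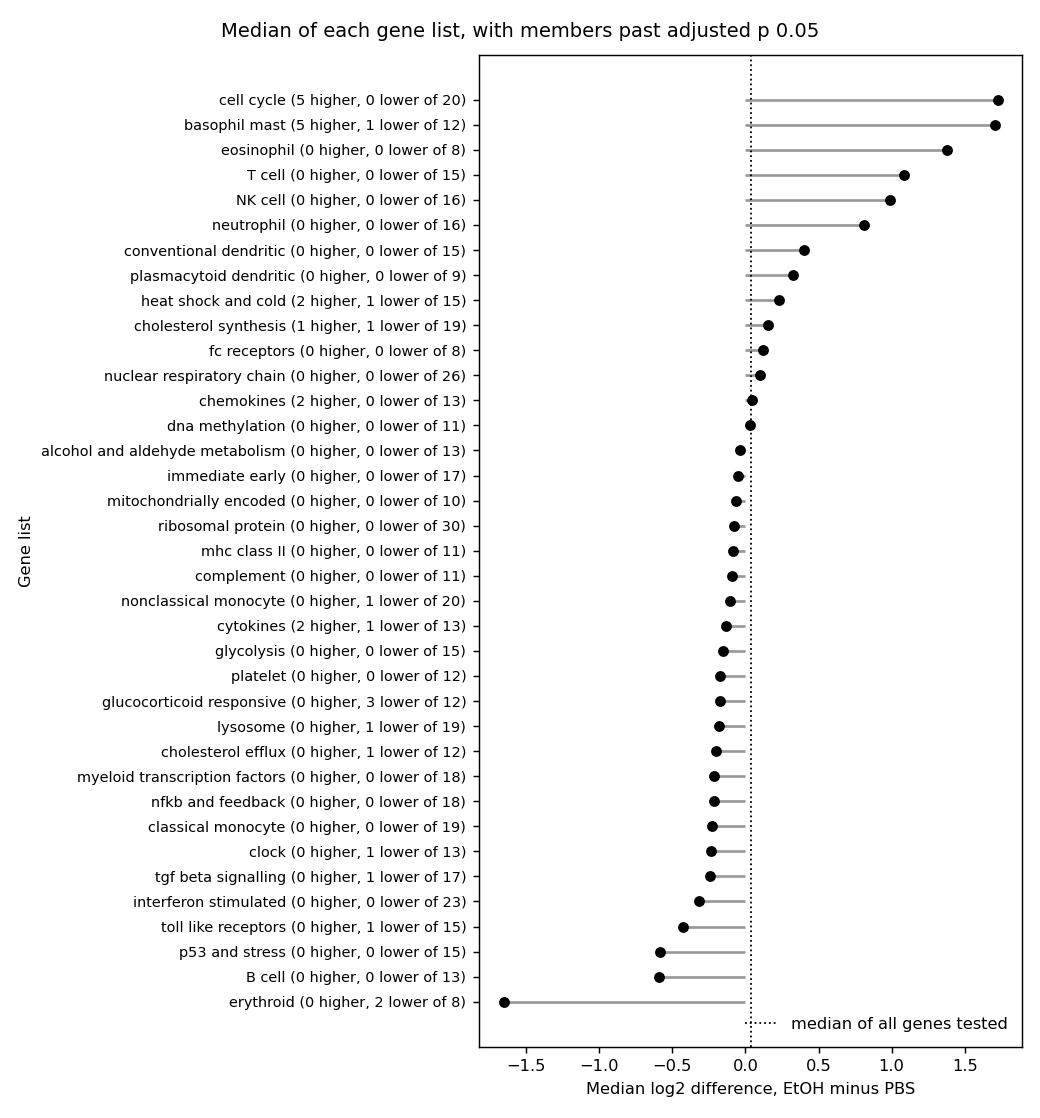
Points give the median log2 difference of EtOH minus PBS over the tested members of each list, and the labels count those that passed an adjusted p of 0.05. The dotted line is the median of all genes tested (0.04), and the cell cycle and erythroid lists lie farthest from it.

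The number of calls depended on whether marker levels of other cells were in the model. When the mean log2(CPM + 1) of the NK cell markers was added as a term, 1 gene passed in edgeR (682 had an unadjusted p under 0.05), with the erythroid markers 1 (1056) and with the basophil and mast cell markers 0 (1011), the last term being added after the results were seen. The basophil and mast cell term includes 5 genes called higher and 1 called lower, and the erythroid term 2 called lower. Those terms were thus made in part from genes called in these same samples, whereas the NK and neutrophil terms held 0 called genes. With the neutrophil markers 115 passed, and 80 of the 198 called genes that carry a usable name were among them. The summed NK level was 1348 to 4906 CPM in EtOH and 731 to 3921 CPM in PBS. Both that sum and the neutrophil sum given above overlapped between the groups, but a sum of CPM is not the term that was fitted. Of the 16 NK markers tested, 15 had a log2 difference above 0, and of the 16 neutrophil markers 11 had. Each term, the neutrophil term included, takes 1 degree of freedom from 11 samples. Why the calls fell was not tested.

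**Figure D5:**
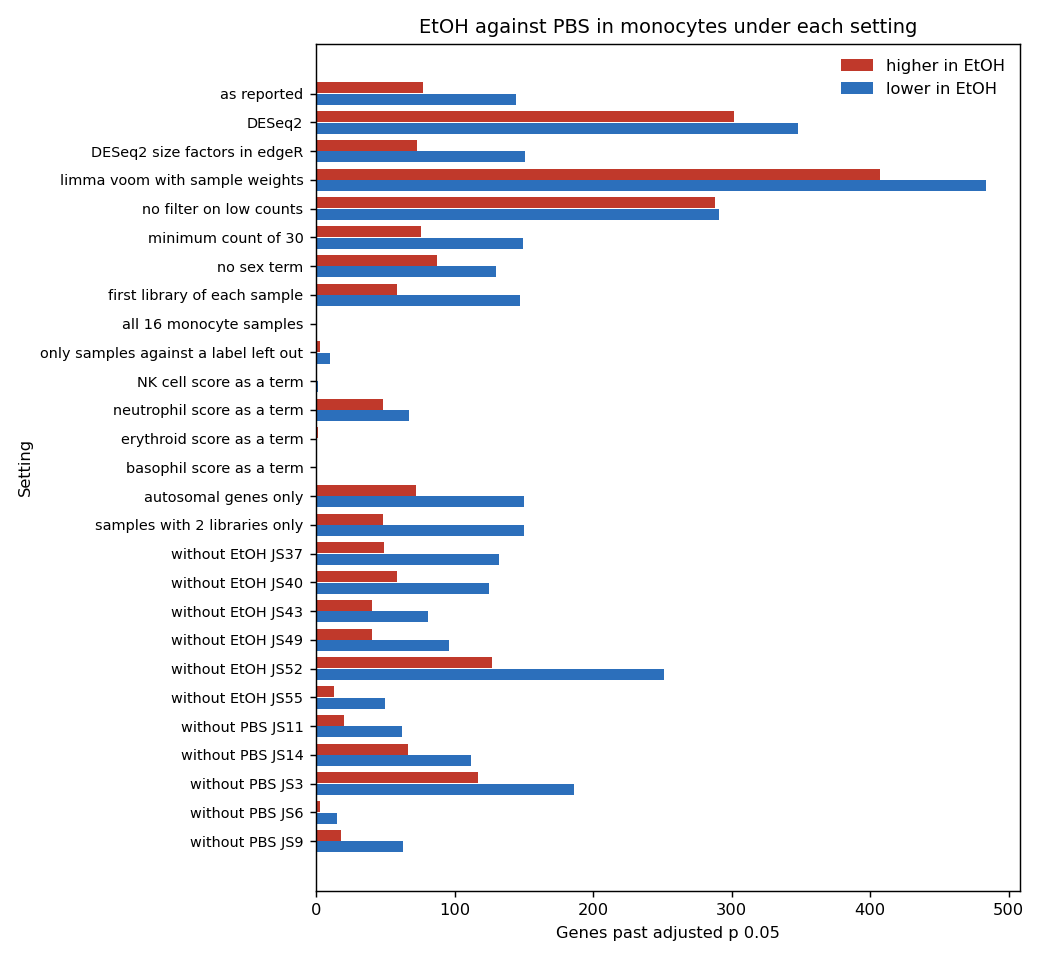
Bars count genes past an adjusted p of 0.05 in EtOH against PBS monocytes, higher in red and lower in blue, in the fit as reported and under each other setting. Calls were 221 as reported, 0 with all 16 samples, and between 18 and 378 when 1 sample was left out.

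EtOH was also set against PBS in the T and B cells of the series in 1 fit over the 3 cell types, with the same number runs left out (7 EtOH and 5 PBS samples of T cells, 6 and 6 of B cells). The labels do not say whether T cells, B cells and monocytes came from the same animals, and neighbouring sample numbers often hold the 3 cell types of 1 labelled sex. The fit took all samples as independent, so the counts shared between cell types may rest in part on shared animals, which was not tested. In it 454 of 16527 genes (2.75%) passed in T cells, 367 (2.22%) in B cells and 535 in monocytes. The 221 monocyte genes come instead from the fit on monocytes alone, over 12623 genes. The shares that follow therefore set calls of different fits side by side. Of the 221 monocyte genes, 68 also passed in T cells in the same direction, which is 30.8% of the monocyte and 15% of the T cell calls, and 58 passed in B cells, 26.2% of the monocyte and 15.8% of the B cell calls. In T cells 2 passed in the opposite direction. In B cells 0 did so. All 3 cell types passed in the same direction for 37 genes. Among them, in the fit over 3 cell types, were Mob3a (log2 differences 1.92 in monocytes, 1.44 in T cells and 1.69 in B cells), Gdpd3 (3.05, 3.32 and 2.65), Stk11 (-1.79, -2.02 and -1.60), Apoe (-2.42, -2.57 and -2.87) and Per1 (-1.81, -2.43 and -2.20).

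The EtOH difference itself differed between monocytes and T cells for 14 genes (0.0847% of 16527), 10 in the higher and 4 in the lower direction, and between monocytes and B cells for 10 genes (0.0605%), 6 higher and 4 lower. Rabgef1 passed in monocytes and in neither lymphocyte type, with log2 differences of -2.18 in monocytes, -0.04 in T cells and -0.05 in B cells in this fit, and the gap was -2.13 (SE 0.32, adjusted p = 0.000904) to T cells and -2.12 (SE 0.33, adjusted p = 0.000942) to B cells. Camkk1 differed from T cells by -4.30 (adjusted p = 0.0105) and from B cells by -3.91, which did not pass (adjusted p = 0.0536). Noct, named as a circadian deadenylase and since shown to act on NADP(H), had log2 differences of -1.77 in monocytes and 0.68 in T cells, a gap of -2.44 (adjusted p = 0.00412), and Fem1c, of a ubiquitin ligase, differed from T cells by -1.19.

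Mcpt8 had log2 differences of 2.62 in monocytes and -2.66 in T cells, a gap of 5.28 (SE 0.72, adjusted p = 0.000317). Prss34 was apart from T cells by 7.996 (SE 1.39, adjusted p = 0.0058), and the basophil factor Gata2 and the steroid enzyme Cyp11a1, both on the basophil list, by 4.07 and 3.70. In T cells Mcpt8, Gata2 and Cyp11a1 fell (-2.66, -3.23 and -2.89) and Prss34 did not pass (-3.12), while in monocytes Gata2 and Cyp11a1 did not pass in that fit (0.84 and 0.81). Ifngr2, a chain of the interferon gamma receptor, differed from T cells by 2.40. In the fits on monocytes alone that left 1 sample out, its monocyte difference was 0.27 to 0.47. Against B cells, Hs3st1, a heparan sulfate sulfotransferase, Gpr132, a receptor of lipid mediators, Faah, which degrades endocannabinoids, Sit1, an adaptor of lymphocyte receptors, and Sesn1, a stress protein, differed by 5.47, 2.64, 3.51, 3.43 and 2.01. In the same leave-one-out fits on monocytes alone, Faah had 0.70 to 1.11, Sit1 1.98 to 2.35 and Sesn1 0.29 to 0.53. These gaps are thus not the size of the monocyte difference. B3gnt5, Gpat3 and Ovgp1, an oviductal glycoprotein, differed from B cells by -2.36, -2.40 and -3.32. With all EtOH and PBS samples of the batch included, 0 genes differed from T cells and 0 from B cells in edgeR, with 814 and 398 at an unadjusted p under 0.05. Leaving out 1 monocyte sample gave 5 (EtOH JS55), 9 (PBS JS9) or 27 (PBS JS3) differences from T cells, and 18 (PBS JS14) or 25 (PBS JS3) from B cells, where the count moved by over 1.5 times.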

How the data were processed

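Blood T cells, B cells and monocytes were sequenced in 124 libraries. The authors deposited raw counts per gene. The labels' protocols give SMART-Seq low input cDNA, Nextera XT libraries and trimming with BBDuk. Per the submitters' processing notes, HISAT2 2.1.0 and HTSeq 0.11.2 were used, with GRCm38. The protocols also name a GRCh38 annotation, but 99.8% of identifiers were mouse genes of GENCODE M21, used for coordinates. No strand is given, so antisense pairs cannot be told apart. Lines without a gene (3) were dropped.

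Libraries of 1 sample were summed (chi-square per gene 1.15 to 1.29 within 9 pairs, against 8.32 or more between samples, over genes with at least 20 counts), giving 11 samples from 20 libraries. edgeR 4.0.16 (R 4.3.3, quasi-likelihood, TMM, filterByExpr with minimum count 10 and total 15, labelled sex as a term) was run over all genes, and over 3 cell types for differences between them. Passing means a Benjamini-Hochberg adjusted p under 0.05. CPM uses the summed total. The genes named are the 14 genes with the lowest p per direction, passing list members and, for lists with 1 passing member and for classical monocytes, the 2 with the lowest p and the 2 with the highest mean CPM, and the 5 lowest p per direction of each cell type difference. Other lists are given by counts. Predicted genes, pseudogenes, receptor segments, Xist and Y-linked genes were counted and not named as results. Sample quality was compared with a two-sided exact permutation test. The fits were tested on simulated data. Alternatives included DESeq2 1.42.0 and limma 3.58.1. Tables used Python 3.11.15 and pandas 2.3.3. Promoters came from RefSeq. The samples, members and lists were chosen with earlier results of these data known.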

Additional observations from a re-analysis of the deposited data

Results flagged for a closer look

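Single samples stood apart from the rest of their group in 9 of 90 groups of values checked, and chance alone flags about 1 in 20. The receptor genes of smell, vomeronasal ones included, summed to 2335 CPM in EtOH JS43 and 2826 CPM in PBS JS14, where the next highest samples of those groups had 163 and 182 CPM. The same samples had the most genes detected, 30679 in EtOH JS43 and 33198 in PBS JS14, and PBS JS14 had the fewest counts of its group, 1.33 in units of 1e6 counts. The other samples far from their group were PBS JS9 for Mob3a (199 CPM), EtOH JS49 for Birc5 (37.1 CPM), PBS JS14 for Prss34 (3.77 CPM) and PBS JS6 for Trim30b (523 CPM).

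The EtOH difference was tested between cell types, and the following genes were past an adjusted p of 0.05 in that test. Against T cells, the monocyte log2 difference was higher by 5.28 for Mcpt8, 4.07 for Gata2, 7.996 for Prss34, 2.40 for Ifngr2 and 3.70 for Cyp11a1, and lower, at -2.13 for Rabgef1, -2.44 for Noct, -4.30 for Camkk1 and -1.19 for Fem1c. Against B cells it was higher by 5.47 for Hs3st1, 2.64 for Gpr132, 3.51 for Faah, 3.43 for Sit1 and 2.01 for Sesn1, and lower, at -2.12 for Rabgef1, -2.40 for Gpat3, -3.32 for Ovgp1 and -2.36 for B3gnt5.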

How the results depend on the processing

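No paired analysis was possible because the EtOH and PBS monocytes share no replicate numbers. The 221 calls became 650 with DESeq2, 891 with limma voom and sample weights, and 579 without a filter on low counts, and 46.5%, 45.7% and 49.7% of these were higher, against 34.8% as reported. They became 0 with all 16 samples, 13 when only samples against a label were left out, 121 without JS43, and 1, 115, 1 and 0 with the NK, neutrophil, erythroid and (added later) basophil terms. Leaving out 1 sample gave 18 (without PBS JS6) to 378 (without EtOH JS52). The 14 differences from T cells became 23 without the sex term and 0 with all batch samples, and 5 (without EtOH JS55) to 27 (without PBS JS3) when 1 monocyte sample was left out. The 10 differences from B cells became 22 at a minimum count of 30, 31 without the sex term, 18 with DESeq2 size factors and 0 with all batch samples, and 7 to 25 (without PBS JS3) in leave-one-out fits. The cause of these changes was not tested.

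With all 16 samples the log2 difference changed sign for Ubash3a (-1.26), Sit1 (-1.14), Faah (-0.83), Sesn1 (-0.46), Tgfbr1 (0.0182), Lamp2 (0.0259), Ctsb (0.12), Ctss (0.15), Nfil3 (0.0563) and Lyz2 (0.34). With the basophil term it did so for Gata2 (-0.74), Cyp11a1 (-0.38), Ctsb (0.44), Nr4a1 (0.0519), Lyz2 (0.0203) and Tgfb1 (-0.026), with the neutrophil term for Ctsb (0.0774) and Tgfb1 (-0.33), with the erythroid term for Ifngr2 (-0.0198), without the sex term for Ctsb (0.0061) and Lyz2 (0.0611), with 2-library samples only for Lyz2 (0.0414) and Tgfb1 (-0.0836), and without JS43 for Tgfb1 (-0.0422, in a leave-one-out range of -0.0422 to 0.291). Gata2 and Cyp11a1 are themselves members of the list that made the basophil term. Of these genes Ubash3a had passed as reported, and with all 16 samples 6 of the 195 called genes with a usable name and a value changed sign, while the other 189 no longer passed. None of 5 quality measures passed between EtOH and PBS (lowest exact permutation p = 0.461). Leaving out 1 sample, the difference of EtOH minus PBS ran from -0.327 (without PBS JS14) to 0.957 (without EtOH JS43) in total counts per 1e6, -4108 to 115 in genes detected, -0.139 to 1.58 in percent of counts in the top 50 genes, and -582 to 343 CPM in olfactory genes.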
